A study of Mus musculus with 12 samples.

Results

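Members of the leukaemia inhibitory factor (LIF), JAK and STAT3 pathway, 10 genes in all, were followed in mouse embryonic stem cells depleted of the splicing factor gene *Srrm2*. They were named from knowledge of the pathway, with earlier results of these data already known. All 10 were found among the 42450 gene identifiers of the count table and had enough reads to be tested. They were the receptor chains *Lifr* and *Il6st*, the receptor-bound kinase *Jak1*, the transcription factor *Stat3*, the feedback inhibitor *Socs3*, and *Pim1*, *Pim3*, *Junb*, *Bcl3* and *Gbx2*, which are known STAT3 target genes.

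LIF is the cytokine added to mouse embryonic stem cell cultures to keep the cells from differentiating. It binds LIFR, which pairs with gp130, the product of *Il6st*, and JAK1 on the joined receptor phosphorylates STAT3, which then enters the nucleus and binds DNA. SOCS3, made from a STAT3 target gene, binds gp130 and the kinase and turns the signal down. STAT3 is controlled by phosphorylation, which RNA-seq does not measure, so the levels given here are transcript levels of the pathway and of its targets.

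PolyA+ RNA of wild-type cells of the male mouse embryonic stem cell line E14tg2a.4 was sequenced in 12 libraries from 3 independent experiments. Each experiment held 4 groups. Cells received 50 nM of siRNA duplexes to *Srrm2* (Srrm2-KD) or, as the control, to the firefly luciferase Gl2, a gene that mouse cells lack (Gl2-KD), and were harvested 24 h or 72 h after seeding. All 4 groups carried a lipid transfection and LIF in serum-free medium, so no sample lacked LIF. The 72 h cells were transfected again 24 h after the first transfection and spent longer in the serum-free medium, so time, the second transfection and the medium cannot be told apart. The cells were of a single line, and each value is a mean over a whole culture, in which fewer cells of a type and less RNA per cell cannot be told apart.

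The libraries held between 73933196 and 153343831 estimated counts, and 19410 genes were tested. Levels are given in CPM, counts scaled to a common library size with TMM factors. Levels of *Srrm2* in Srrm2-KD were 43.0% of Gl2-KD at 24 h and 44.6% at 72 h, lower in 3 of 3 experiments at each time, with adjusted p = 0.0663 and 0.0991 (quasi-likelihood test of edgeR, Benjamini-Hochberg adjustment over all genes tested). The same test called 0 genes at either time at an adjusted p below 0.05. DESeq2 called *Srrm2* at both (adjusted p = 5.03e-11 and 1.72e-09). The knockdown was uneven, and the *Srrm2* groups overlapped at each time. Knockdown cells of experiment 1 kept 517 CPM of *Srrm2* at 24 h and 461 CPM at 72 h. Controls of experiment 1 held 911 CPM at 24 h and 962 CPM at 72 h, and those of experiments 2 and 3 between 442 and 496 CPM. The log2 drop at 24 h was smallest in experiment 1 (-0.82) and largest in experiment 2 (-1.69). Single experiments ranged from -1.40 to -1.025 at 72 h. The summed level of 8 embryonic stem cell markers, which include *Pou5f1*, *Sox2* and *Nanog*, lay between 4293 and 7222 CPM in the 12 libraries. The sums over marker lists of primitive endoderm, trophectoderm, mesoderm, neuroectoderm and fibroblasts lay between 1.12 and 63.6 CPM, and the endoderm marker *Gata6* did not pass 0.356 CPM in any library.

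STAT3 binds palindromes of the form TTCNNNGAA. The letters were looked for in the 250 bases before the RefSeq start sites of the members (12 windows for 10 genes, build GRCm38.p6). The palindrome reads the same on both strands, so a single search covers both. It stood in 1 of the 12 windows, that of *Socs3*, and in 7.02% of all 32851 windows of that length. The tighter form TTCCNGGAA, which is contained in the first, stood in 0 of the 12 and in 0.913% of all. Below are the *Socs3* stretch with the match, 154 to 146 bases before the start site, in capitals, and that of *Pim1*, the member with the largest difference between the siRNAs, which had no match. Both are written 5′ to 3′ along the gene's strand and stop where annotated exons begin.

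*Socs3*, chr11:117969452-117969616, minus strand: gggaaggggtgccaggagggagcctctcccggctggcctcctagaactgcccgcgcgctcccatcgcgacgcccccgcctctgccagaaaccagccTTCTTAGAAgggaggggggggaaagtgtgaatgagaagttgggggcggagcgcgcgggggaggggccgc
*Pim1*, chr17:29490535-29490752, plus strand: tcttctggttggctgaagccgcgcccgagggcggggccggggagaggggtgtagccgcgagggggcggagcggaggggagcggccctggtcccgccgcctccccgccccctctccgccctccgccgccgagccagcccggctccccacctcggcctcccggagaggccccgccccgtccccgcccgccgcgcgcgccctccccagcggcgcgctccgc

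The *Socs3* stretch lies between exons annotated for *Socs3* and has a GC content of 70.3%, and the *Pim1* stretch has one of 83.0%. A match is a run of letters and was not tested as a binding site.

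Levels of different genes are compared here per kilobase of exon (the union of all annotated exons), as means over the 12 libraries. *Pim3*, which encodes a serine/threonine kinase, was the highest member with 63.9 CPM per kb, above 95.8% of the tested genes of known length. *Socs3* followed with 36.9 CPM per kb and *Bcl3*, an IκB family co-regulator of NF-κB, with 13.7 CPM per kb. *Pim3* ranged from 44.3 to 86.7 CPM per kb and *Socs3* from 26.6 to 44.2 CPM per kb over the libraries, so their ranges just missed each other, and *Bcl3* from 9.77 to 19.1 CPM per kb reached into the range of *Il6st*. *Il6st* at 10.7, *Stat3* at 10.5, *Gbx2* at 10.2, *Pim1* at 10.1 and *Junb* at 9.81 CPM per kb lay closer to each other than the spread between libraries of any of them. *Lifr* at 8.58 CPM per kb and *Jak1* at 6.01 CPM per kb were lowest, with ranges that overlapped those of the members before them, and *Jak1* was above 68.7% of the tested genes. With the longest transcript as the length, the order of the first 3 and of the last 2 was the same, and *Stat3* stood before *Il6st* and *Gbx2* after *Junb*.

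The receptor chains differed more between experiments than between siRNAs or times. *Lifr* (chromosome 15, 7090614 to 7197489, plus strand, GRCm38, as all gene positions here) encodes the chain that binds LIF directly. In Gl2-KD its levels in experiments 1, 2 and 3 were 136, 67.4 and 57.2 CPM at 24 h and 126, 73.3 and 59.2 CPM at 72 h. The Srrm2-KD levels were 127, 72.4 and 77.4 CPM at 24 h and 165, 74.9 and 75.0 CPM at 72 h. The 4 libraries of experiment 1 were above the other 8, and the groups overlapped. Srrm2-KD over Gl2-KD gave a log2 fold change of 0.15 ± 0.11 (SE, n = 3 against 3) at 24 h. At 72 h it was 0.25 ± 0.11, higher in 3 of 3 experiments, with an unadjusted p of 0.0448 and an adjusted p of 0.376 in edgeR's quasi-likelihood test.

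*Il6st* (chromosome 13, 112464070 to 112510086, plus strand) encodes gp130, the signalling chain that most receptors of the interleukin-6 family share. Its levels in Gl2-KD were 199, 92.7 and 88.5 CPM at 24 h and 168, 81.3 and 77.8 CPM at 72 h. In Srrm2-KD they were 190, 90.5 and 92.7 CPM at 24 h and 179, 76.4 and 92.0 CPM at 72 h. Experiment 1 was again above every other library. The log2 fold change between the siRNAs was -0.01 ± 0.09 at 24 h, with a 95% interval from -0.21 to 0.18, and 0.08 ± 0.09 at 72 h, with one from -0.11 to 0.28. Within Gl2-KD the value at 72 h was lower than at 24 h in 3 of 3 experiments, by a log2 fold change of -0.21 ± 0.09 (unadjusted p = 0.0380, edgeR adjusted p = 0.263).

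*Jak1* (chromosome 4, 101152367 to 101265282, minus strand) encodes the main kinase of gp130. Its levels in Gl2-KD were 67.4, 36.1 and 38.0 CPM at 24 h and 54.2, 36.4 and 40.3 CPM at 72 h. With Srrm2-KD it had 61.6, 34.7 and 34.0 CPM at 24 h and 53.3, 28.9 and 36.8 CPM at 72 h. Srrm2-KD had the smaller value in 3 of 3 experiments at each time, though by little, with a log2 fold change of -0.11 ± 0.11 at 24 h and -0.16 ± 0.11 at 72 h, and the groups overlapped (edgeR adjusted p = 1.000 and 0.565).

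*Stat3* (chromosome 11, 100885098 to 100939540, minus strand), the transcription factor at the centre of the pathway, had levels in Gl2-KD of 126, 104 and 72.2 CPM at 24 h and 130, 78.5 and 84.5 CPM at 72 h. In Srrm2-KD they were 135, 103 and 77.1 CPM at 24 h and 141, 68.8 and 81.9 CPM at 72 h. Between siRNAs the groups overlapped almost whole, with a log2 fold change of 0.06 ± 0.15 at 24 h (95% interval from -0.27 to 0.38) and -0.03 ± 0.15 at 72 h (95% interval from -0.36 to 0.29). Changes of *Stat3* RNA within these intervals remain compatible with the data of 3 experiments.

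*Socs3* (chromosome 11, 117966079 to 117970047, minus strand) is the inhibitor that the pathway induces against itself. In Gl2-KD its levels were 91.8, 110 and 77.0 CPM at 24 h and 112, 107 and 115 CPM at 72 h. In Srrm2-KD they were 110, 102 and 101 CPM at 24 h and 120, 107 and 128 CPM at 72 h. Unlike the receptor chains, *Socs3* was highest in experiment 1 in 1 of the 4 groups, and its lowest library was Gl2-KD at 24 h in experiment 3. Between the siRNAs the log2 fold change was 0.17 ± 0.13 at 24 h and 0.09 ± 0.13 at 72 h (edgeR adjusted p = 1.000 and 0.809). From 24 h to 72 h it was 0.26 ± 0.13 in Gl2-KD, higher in 2 of 3 experiments, and 0.18 ± 0.13 in Srrm2-KD, higher in 3 of 3 (edgeR adjusted p = 0.332 and 0.527).

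**Figure D1:**
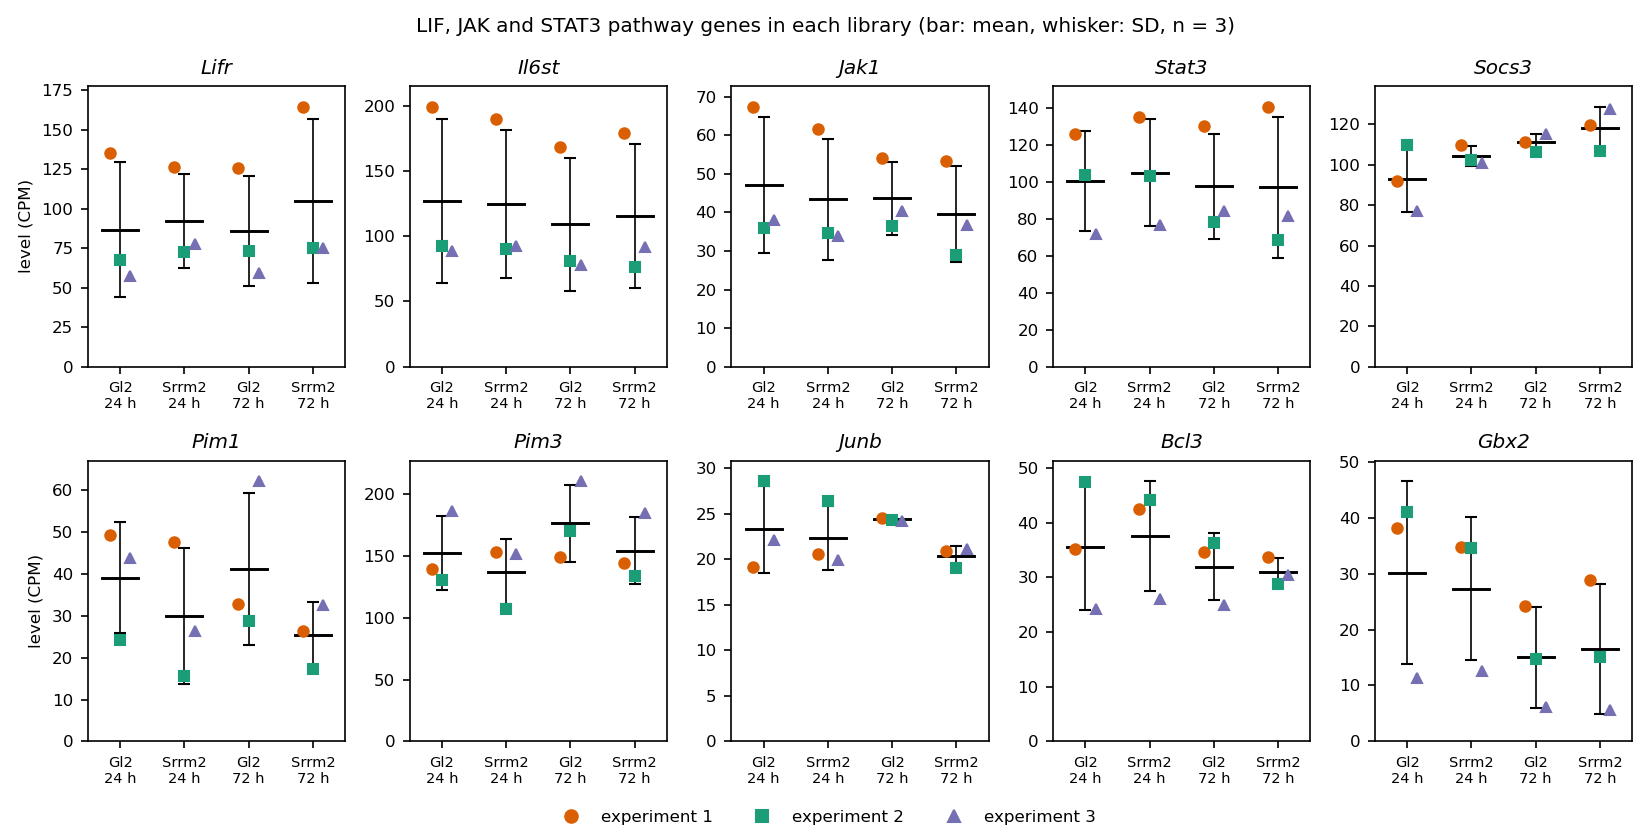
Level of each pathway gene in each library in CPM, on linear axes that start at 0. Colours and shapes mark the 3 experiments, bars the group mean and whiskers the SD (n = 3). Experiment 1 is highest in every group for *Lifr*, *Il6st*, *Jak1* and *Stat3*, and *Gbx2* is lower at 72 h than at 24 h in each experiment under either siRNA.

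Among the target genes, *Pim1* (chromosome 17, 29490753 to 29496112, plus strand), a serine/threonine kinase gene like *Pim3*, had the largest difference between siRNAs. In Gl2-KD its levels were 49.3, 24.2 and 43.7 CPM at 24 h and 32.8, 28.8 and 62.0 CPM at 72 h. Srrm2-KD libraries had 47.6, 15.7 and 26.4 CPM at 24 h and 26.4, 17.2 and 32.6 CPM at 72 h. Each Srrm2-KD library was below the Gl2-KD library of its own experiment and time, while the groups overlapped because the experiments lay far apart. The log2 fold change was -0.42 ± 0.25 at 24 h (unadjusted p = 0.128, edgeR adjusted p = 1.000). At 72 h it was -0.71 ± 0.25, 61.3% of Gl2-KD, with an unadjusted p of 0.0177 and an edgeR adjusted p of 0.289. By experiment the log2 difference at 72 h was -0.31, -0.75 and -0.93. The adjusted p passed 0.05 in 2 of 25 alternative fits, when experiment and time were blocked jointly (log2 fold change -0.66, edgeR adjusted p = 0.0416) and with the 72 h libraries fitted alone (-0.66, edgeR adjusted p = 0.0462). Those fits called 3.73% and 1.78% of the genes they tested, and the main fit 0%. Over all the alternative fits the log2 fold change of *Pim1* lay between -1.01 and -0.46.

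*Pim3* (chromosome 15, 88862186 to 88865726, plus strand) was between 131 and 187 CPM in Gl2-KD at 24 h and between 149 and 210 CPM at 72 h. In Srrm2-KD it was between 107.5 and 153.1 CPM at 24 h and between 134 and 185 CPM at 72 h. Its log2 fold change between the siRNAs was -0.14 ± 0.12 at 24 h and -0.20 ± 0.12 at 72 h, lower in 2 and in 3 of 3 experiments, with overlapping groups (edgeR adjusted p = 1.000 and 0.513).

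*Junb* (chromosome 8, 84974484 to 84978718, minus strand), a subunit gene of the AP-1 transcription factor, was the member with the smallest range over the 12 libraries, 1.5-fold from lowest to highest. In Gl2-KD its levels were 19.2, 28.5 and 22.1 CPM at 24 h and 24.5, 24.3 and 24.2 CPM at 72 h. In Srrm2-KD they were 20.6, 26.4 and 20.0 CPM at 24 h and 20.8, 19.0 and 21.2 CPM at 72 h. At 72 h every Srrm2-KD library was below every Gl2-KD library, with a log2 fold change of -0.26 ± 0.14 (95% interval from -0.56 to 0.05, edgeR adjusted p = 0.480). *Junb* exons overlap those of *Prdx2* on the opposite strand, which held a mean of 34069 counts against 2692 for *Junb*. The library kit keeps the strand, and no source used here says whether the counting did.

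*Bcl3* (chromosome 7, 19808462 to 19822770, minus strand) was between 24.2 and 47.4 CPM at 24 h and between 24.9 and 36.3 CPM at 72 h in Gl2-KD. In Srrm2-KD it was between 26.0 and 44.1 CPM at 24 h and between 28.9 and 33.7 CPM at 72 h. The log2 fold change was 0.08 ± 0.16 at 24 h and -0.01 ± 0.16 at 72 h (95% interval from -0.37 to 0.35), and at 72 h the 3 experiments had values of -0.04, -0.33 and 0.29 that differed in sign.

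The members as a list were then set beside all genes tested. At 24 h, 0 of the 10 members passed an adjusted p below 0.05 (0% of all genes tested) and 0 passed an unadjusted p below 0.05 (2.62% of all genes tested). DESeq2 called 0 members, and 0.129% of all genes. The median log2 fold change of the members was -0.03 and that of all genes tested 0.01. No member had groups that did not overlap at 24 h, against 3.44% of all genes tested.

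At 72 h, 0 of the 10 members passed the adjusted threshold (0% of all genes tested), and *Pim1* and *Lifr* passed the unadjusted one, 2 of 10 (12.9% of all genes tested). DESeq2 called 0 members and 3.38% of the genes it tested. The median of the members was -0.02 and that of all genes -0.02. Only *Junb* had groups that did not overlap, 1 of 10 (6.66% of all genes tested). Of other cell types' markers 0 were called at 72 h. The 4 tested fibroblast markers all had values below 0, with a median log2 fold change of -0.996, 1 of them past the unadjusted threshold. The highest of the 12 libraries was at 1.21 CPM for *Col1a1*, 0.667 CPM for *Col1a2* and 0.185 CPM for *Col3a1*. *Thy1* was at 4.51, 8.88 and 22.9 CPM in Gl2-KD and at 3.58, 9.58 and 22.8 CPM in Srrm2-KD. The sum over all 6, most of it *Thy1*, ranged from 4.84 to 24.8 CPM in Gl2-KD and from 3.89 to 23.2 CPM in Srrm2-KD. Of 4 tested neuroectoderm markers 3 had values below 0, 2 of them past the unadjusted threshold (smallest edgeR adjusted p = 0.265), with a median of -0.56, and their sum over all 5 ranged from 18.5 to 47.7 CPM in Gl2-KD and from 17.3 to 42.9 CPM in Srrm2-KD. The medians were 0.28 for 7 primitive endoderm, -0.17 for 3 mesoderm and -0.05 for 6 trophectoderm markers, with 0 past the unadjusted threshold. Of the 8 embryonic stem cell markers 0 were called and 3 passed the unadjusted threshold, all lower. Their part in the levels of the members was not tested. With 10 members, counts of this size cannot be set apart from the shares of all genes.

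**Figure D2:**
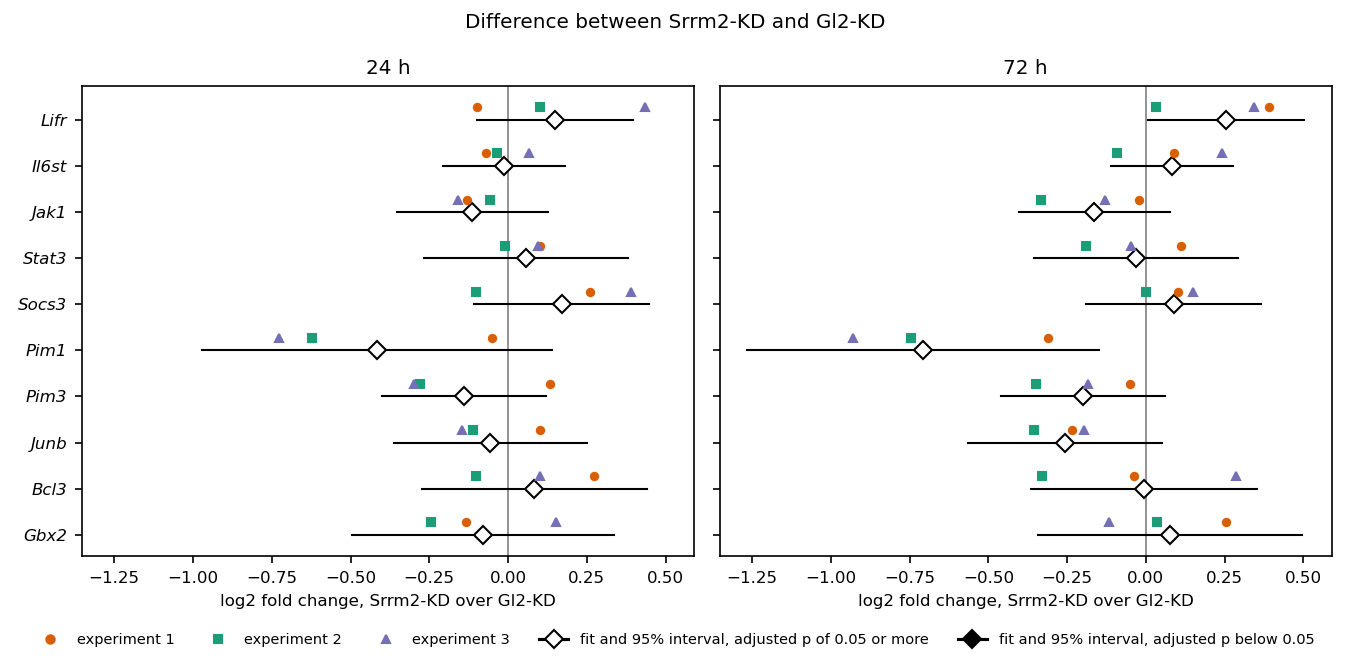
Log2 fold change of Srrm2-KD over Gl2-KD for each pathway gene with 24 h in the left panel and 72 h in the right. Diamonds with lines are the edgeR estimate and its 95% interval over 3 experiments, and coloured points the difference within each experiment. All diamonds are open, since no member passed an adjusted p of 0.05. *Pim1* lies lowest at each time, at -0.42 and -0.71.

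The largest difference among the members was between times. *Gbx2* (chromosome 1, 89927956 to 89931179, minus strand), a homeobox gene that LIF and STAT3 signalling is known to induce in these cells, had levels in Gl2-KD of 38.1, 41.0 and 11.4 CPM at 24 h and 24.1, 14.8 and 6.15 CPM at 72 h. In Srrm2-KD it had 34.8, 34.6 and 12.6 CPM at 24 h and 28.8, 15.2 and 5.67 CPM at 72 h. Every experiment was lower at 72 h, while the groups overlapped because experiment 3 was low throughout, and the highest library was 7.22 times the lowest. In Gl2-KD *Gbx2* fell to 49.5% of its 24 h level, a log2 fold change of -1.01 ± 0.19 (n = 3 against 3, edgeR's quasi-likelihood test, adjusted p = 0.0321). In Srrm2-KD the log2 fold change was -0.86 ± 0.19, with an unadjusted p of 0.000962 and an edgeR adjusted p of 0.0829.

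The call of *Gbx2* in Gl2-KD was close to the threshold. It was lost when any of the 6 Gl2-KD libraries was left out, with adjusted p from 0.0508 without Gl2-KD 72 h replicate 1 to 0.224 without Gl2-KD 72 h replicate 2, and also without Srrm2-KD 24 h replicate 2 (0.0591). The log2 fold change without experiment 2 was -0.79 (adjusted p = 0.607) and without experiment 3 it was -1.08 (adjusted p = 0.120), and the call was kept without experiment 1. Over all the alternative fits the log2 fold change in Gl2-KD lay between -1.19 and -0.79. In Srrm2-KD the adjusted p passed 0.05 without experiment 1 (-1.17, edgeR adjusted p = 0.0396) and in the unfiltered table (-0.87, edgeR adjusted p = 0.0360). These fits called 0.711% and 0.727% of the genes they tested. DESeq2 called *Gbx2* in Gl2-KD and in Srrm2-KD (adjusted p = 5.48e-05 and 0.00191). The test of whether the change with time differed between the siRNAs gave 0.16 ± 0.27 on the log2 scale for *Gbx2* (95% interval from -0.43 to 0.75), so the passing value in 1 group and the missing one in the other were not shown to differ. Exons of *Gbx2* overlap those of *D130058E05Rik* on the opposite strand, which held a mean of 417 counts against 2779 for *Gbx2*. With no block for the experiment the edgeR adjusted p of *Gbx2* in Gl2-KD was 1.000. Markers of other cell types were read over the same times. The 6 trophectoderm markers in Gl2-KD summed to between 4.64 and 10.2 CPM at 24 h and between 8.24 and 22.1 CPM at 72 h. There 1 of 6, *Krt7*, was called higher (log2 fold change 1.83, edgeR adjusted p = 0.0144), as were 0.747% of all genes tested. Of the 6, 3 had values above 0 and 3 below. The highest library was at 18.6 CPM for *Krt7* and 5.79 CPM for *Eomes*. It was at 0.662 CPM for *Gata3*, 0.451 CPM for *Elf5*, 0.383 CPM for *Hand1* and 0.209 CPM for *Cdx2*. The 5 neuroectoderm markers summed to between 28.7 and 63.6 CPM at 24 h and between 18.5 and 47.7 CPM at 72 h in Gl2-KD. Of 4 tested, 0 were called (smallest edgeR adjusted p = 0.0612). The unadjusted threshold was passed by 2 of them, both lower, and by 7.21% of all genes tested in that direction. Of 3 tested mesoderm markers 2 passed it, both higher, as did 9.59% of all genes tested. The mesoderm list had a median of 0.82, 0 called and a sum of at most 3.16 CPM. In Srrm2-KD *Krt7* was again called higher (1.77, edgeR adjusted p = 0.0333) and the neuroectoderm marker *Map2* was called lower (-0.93, edgeR adjusted p = 0.0467). Of all genes tested 0.191% were called higher there and 0.361% lower. The trophectoderm sum there lay between 3.48 and 9.64 CPM at 24 h and between 6.47 and 20.5 CPM at 72 h, and the neuroectoderm sum between 25.8 and 59.3 CPM and between 17.3 and 42.9 CPM. Of the primitive endoderm, fibroblast and 8 embryonic stem cell markers 0 were called in either group. Among the stem cell markers 1 higher and 2 lower passed the unadjusted threshold in Gl2-KD, and 2 lower in Srrm2-KD. The part of any of these markers in the levels of *Gbx2* was not tested.

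Over the whole list, 1 of 10 members was called between times in Gl2-KD (1.45% of all genes tested), and *Gbx2* and *Il6st* passed the unadjusted threshold, 2 of 10 (16.8% of all genes tested). In Srrm2-KD 0 of 10 were called (0.551% of all genes tested), and *Gbx2* alone passed the unadjusted threshold, 1 of 10 (16.3% of all genes tested). DESeq2 called 1 of 10 in each, beside 8.16% and 6.62% of the genes it tested. No member had groups that did not overlap between times, in Gl2-KD (7.27% of all genes tested) or in Srrm2-KD (7.48% of all genes tested). The members had a median log2 fold change of -0.01 in Gl2-KD, beside 0.02 for all genes, and of -0.12 in Srrm2-KD, beside 0.0015.

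For the difference of the knockdown effect between 72 h and 24 h, 0 of 10 members passed the adjusted threshold (0% of all genes tested) and 0 the unadjusted one (1.64% of all genes tested), with DESeq2 calling 0 members and 0.0103% of all genes. The smallest unadjusted p was that of *Junb*, 0.331, with a difference of -0.20 ± 0.20. The comparisons at 72 h and between times share the Gl2-KD and Srrm2-KD libraries of 72 h and are not independent of each other.

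**Figure D3:**
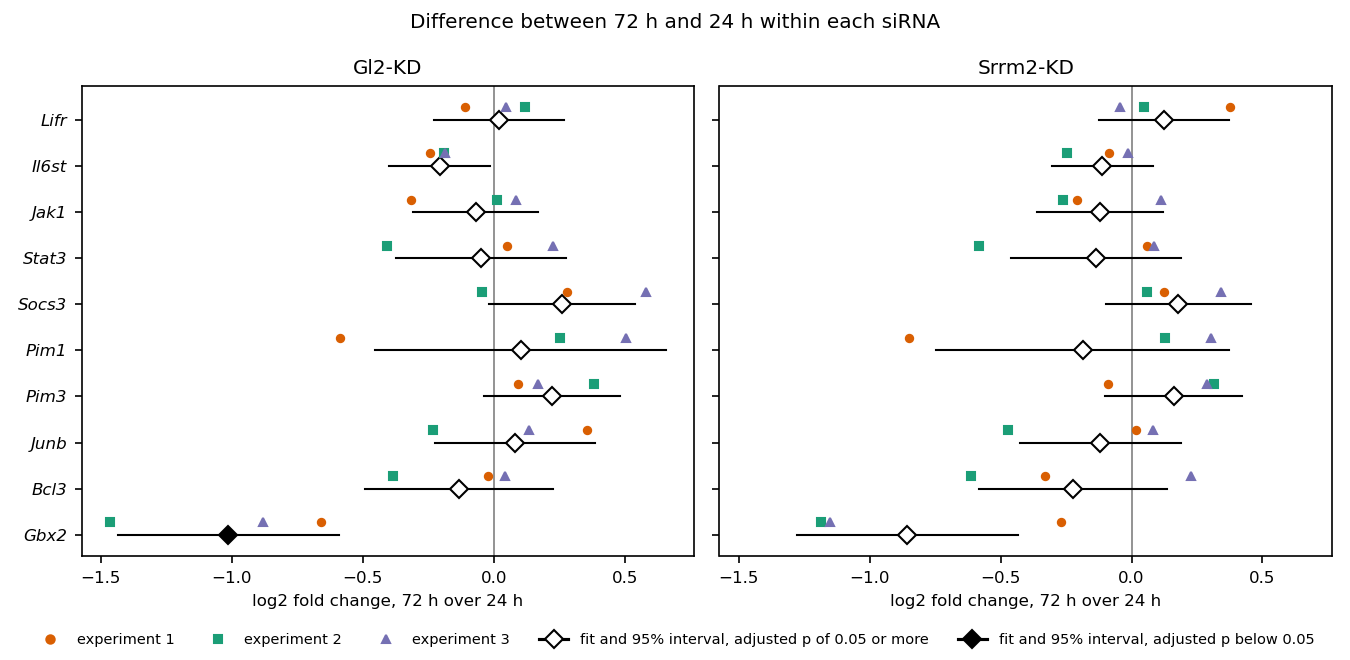
Log2 fold change of 72 h over 24 h for each pathway gene with Gl2-KD in the left panel and Srrm2-KD in the right, drawn as for the siRNAs. The filled diamond is *Gbx2* in Gl2-KD at -1.01, the single member past an adjusted p of 0.05. *Gbx2* in Srrm2-KD is at -0.86 and open, and the other members lie between -0.22 and 0.26.

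The experiments differed in the receptor chains, *Jak1* and *Stat3*. The mean log2 ratio of experiment 1 over the mean of experiments 2 and 3, taken within each of the 4 groups, was 1.09 for *Il6st*, 0.99 for *Lifr*, 0.73 for *Jak1* and 0.68 for *Stat3*. For each of these 4 genes, all 4 libraries of experiment 1 were above all 8 others, as they were for 16.7% of all genes tested. Their ratios were above those of 88.3%, 86.4%, 80.2% and 78.8% of all genes tested, so ratios of this size were common. The ratio was 0.04 for *Socs3*, -0.09 for *Pim3*, -0.12 for *Junb*, 0.19 for *Bcl3* and 0.41 for *Pim1*. *Gbx2* had a ratio of 1.13, although its experiment 1 and 2 libraries were close at 24 h.

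Over all genes the same ratio rose with transcript length from the second bin of length on. With genes split by union exon length into 10 bins of about equal number, its median was -0.25 in bin 1 (57 to 908 bases) and went from -0.41 in bin 2 (909 to 1637 bases) to 0.63 in bin 10 (9018 bases and over). *Il6st*, *Lifr* and *Stat3* are in bin 10, with 11099, 10776 and 9527 bases, and *Jak1* with 7227 bases is in bin 9. Their ratios lay within the quartiles of their bins, 0.20 to 1.11 in bin 10 and -0.03 to 0.77 in bin 9. *Gbx2*, with 2177 bases, is in bin 3, whose median was -0.37. The part of library preparation or RNA quality in this pattern was not tested. The experiments were not groups of the design, so the ratios are given with no test.

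With offsets for gene length in the fit, an alternative chosen after this pattern was seen, 0 members were called between the siRNAs at either time and *Gbx2* was the member called between times in Gl2-KD (log2 fold change -1.03, edgeR adjusted p = 0.0380). *Pim1* at 72 h was then at -0.71 and *Lifr* at 0.32 (edgeR adjusted p = 0.287 and 0.256).

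**Figure D4:**
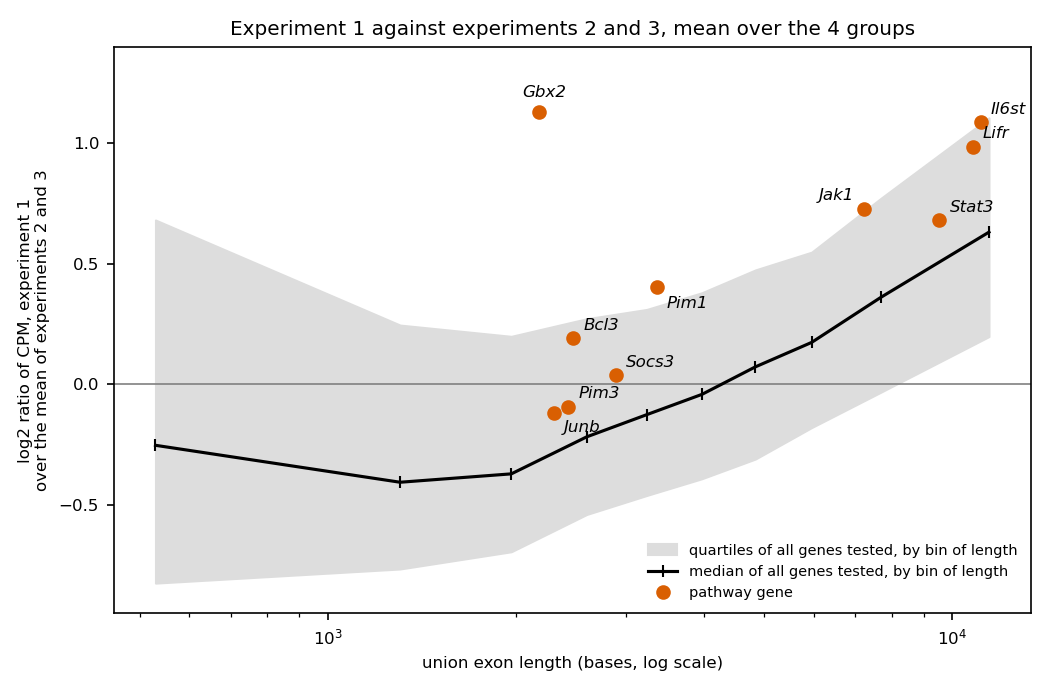
Log2 ratio of CPM in experiment 1 over the mean of experiments 2 and 3 (mean over the 4 groups) against union exon length in bases on a log axis. Orange points are the pathway genes, the black line the median and the grey band the quartiles of all tested genes by bin of length. *Jak1*, *Stat3*, *Lifr* and *Il6st* lie at the long end, where the median reaches 0.63, and *Gbx2* is far above the median for its length.

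Members were also compared with each other over the 12 libraries, after the mean of each experiment was subtracted from log2 CPM. *Stat3* and *Bcl3* had a Pearson r of 0.81, *Jak1* and *Pim1* of 0.80, *Il6st* and *Gbx2* of 0.76 and *Stat3* and *Junb* of 0.74, the highest of all pairs of members. *Socs3* had r = 0.33 with *Stat3*, and *Lifr* with *Pim1* had the lowest value, -0.70. Differences of time and siRNA between the libraries remain in these values, which describe the 12 libraries and carry no test.

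Of all 19409 other genes tested, those most like *Stat3* were *Lnx2*, an E3 ubiquitin ligase gene (r = 0.96, mean level 16.2 CPM), *Tbx21* (r = 0.95, 0.142 CPM) and *Omp* (r = 0.95, 0.848 CPM). With the experiment means left in, their r was 0.92, 0.32 and 0.34. Those most like *Socs3* were *Pdxk-ps* (r = 0.92), *Gm8885* (r = 0.91) and *Bpifc* (r = 0.91), or 0.64, 0.66 and 0.89 with the experiment means left in. These 3 genes and *Tbx21* were all under 0.165 CPM, where few counts stand behind a value. Such values are the highest of many genes and carry no test.

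A further 71 genes of the pathway, in 6 lists by role, were read from the same fit, and 69 had enough counts to be tested. Between the siRNAs 0 of 69 were called at 24 h and 0 of 69 at 72 h. The unadjusted threshold was passed by 1 higher and 3 lower at 24 h (1.15% and 1.47% of all genes tested), and by 2 higher and 7 lower at 72 h (5.01% and 7.86% of all genes tested). Their median log2 fold change was -0.04 at 24 h and -0.09 at 72 h. Between times, 3 of 69 were called in Gl2-KD, all lower at 72 h (1.45% of all genes tested were called, 0.706% lower), and 0 of 69 in Srrm2-KD (0.551%).

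Of 7 tested ligands of the family, 0 were called in these comparisons. *Ctf1* (cardiotrophin) was the highest per length with 1.64 CPM per kb, before *Osm* (oncostatin M) with 1.25 CPM per kb and *Cntf* with 1.24 CPM per kb, all below the 6.01 CPM per kb of *Jak1*, the lowest member. At 72 h *Il11* had a log2 fold change of 0.81 ± 0.31 between the siRNAs (edgeR adjusted p = 0.308) and *Clcf1* one of -0.51 ± 0.35 (edgeR adjusted p = 0.569). *Lif* itself, named after its values were seen, was at 3.30, 3.62 and 3.64 CPM in Gl2-KD at 24 h and at 4.97, 6.34 and 6.18 CPM at 72 h. These groups did not overlap, as for 7.27% of all genes tested, with a log2 fold change of 0.73 ± 0.17 (edgeR adjusted p = 0.0643). In Srrm2-KD *Lif* was at 3.92, 3.74 and 4.02 CPM at 24 h and at 6.86, 6.55 and 5.44 CPM at 72 h. Those groups were also without overlap, as for 7.48% of all genes tested. The smallest edgeR adjusted p of the ligands there was 0.104.

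The 5 other receptors of the family were low. *Il11ra1* was the highest with 1.92 CPM per kb, before *Cntfr* with 1.23 CPM per kb and *Lepr*, the leptin receptor gene, with 0.0720 CPM per kb. *Osmr*, the oncostatin M receptor gene, and *Il6ra*, the interleukin-6 receptor gene, were at 0.0193 and 0.0241 CPM per kb. With *Cntfr*, these had the smallest p of the list at 72 h, from 0.171 to 0.239 unadjusted, and 0 of 5 were called in any comparison.

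Among 9 other JAKs and STATs, 0 were called. *Jak3* was the highest per length with 11.5 CPM per kb, about that of *Il6st*, before *Stat6* with 8.77 CPM per kb and *Stat2* with 6.78 CPM per kb. At 72 h *Jak3* was at 76.6 ± 24.6 CPM (SD, n = 3) in Gl2-KD and at 47.7 ± 22.2 CPM in Srrm2-KD, lower in 3 of 3 experiments, with a log2 fold change of -0.71 ± 0.15 (SE, edgeR adjusted p = 0.136). *Stat6* had -0.24 ± 0.14 and *Stat5a* -0.45 ± 0.26 (edgeR adjusted p = 0.503 and 0.514). From 24 h to 72 h in Gl2-KD all 9 had values above 0, as had 10158 of all 19410 genes, with a median of 0.20 and a smallest adjusted p of 0.214. In Srrm2-KD 6 of the 9 had values above 0, with a median of 0.04.

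Of 14 other inhibitors, *Socs1*, a close relative of *Socs3*, was called between times in Gl2-KD. It was at 0.846 ± 0.421 CPM at 24 h and at 0.221 ± 0.126 CPM at 72 h, a log2 fold change of -1.93 ± 0.41 (edgeR adjusted p = 0.0488). The groups did not overlap, as for 7.27% of all genes tested. In Srrm2-KD *Socs1* was at 0.984 ± 0.516 CPM at 24 h and at 0.325 ± 0.149 CPM at 72 h. Those groups did not overlap either (7.48% of all genes tested), and *Socs1* was not called there. *Pias3*, an inhibitor of STAT3 binding to DNA, was at 30.5 ± 0.292 CPM in Gl2-KD and at 20.9 ± 2.03 CPM in Srrm2-KD at 72 h. Again the groups did not overlap, as for 6.66% of all genes tested (log2 fold change -0.55 ± 0.11, edgeR adjusted p = 0.136). At 24 h *Pias3* had -0.35 ± 0.11 (unadjusted p = 0.0104, edgeR adjusted p = 1.000), also without overlap, as for 3.44% of all genes tested. *Cish* had -0.47 ± 0.22 and *Socs7* -0.24 ± 0.12 at 72 h (edgeR adjusted p = 0.396 and 0.464). The highest of the list were *Pias2* with 49.7 CPM per kb, *Ptpn2*, a phosphatase gene, with 22.2 CPM per kb and *Pias4* with 15.9 CPM per kb, and their log2 fold changes at 72 h were 0.08, 0.14 and -0.24.

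In the SHP2, RAS and PI3K arms, which leave the same receptor beside STAT3, 0 of 14 were called. At 72 h 12 of the 14 had values below 0 between the siRNAs, and 10118 of all 19410 genes did. The adaptor genes *Shc1*, *Sos1* and *Grb2* had the smallest p, with log2 fold changes of -0.25 ± 0.09, -0.26 ± 0.10 and -0.20 ± 0.09 (edgeR adjusted p = 0.289, 0.311 and 0.358). *Mapk3* was the highest with 59.4 CPM per kb, before *Gab1* with 35.4 CPM per kb and *Map2k1* with 31.5 CPM per kb, and their log2 fold changes at 72 h were -0.18, -0.08 and -0.05.

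Of 20 other LIF or STAT3 targets, *Myc* and *Sp5* were called between times in Gl2-KD, in the direction of *Gbx2*. *Myc* went from 41.1 ± 13.4 CPM to 14.0 ± 10.1 CPM (SD, n = 3), a log2 fold change of -1.73 ± 0.25 (edgeR adjusted p = 0.0144). Its groups did not overlap, as for 7.27% of all genes tested. *Sp5*, a zinc finger factor gene, went from 4.38 ± 2.02 CPM to 2.23 ± 0.923 CPM, a log2 fold change of -0.97 ± 0.21 (edgeR adjusted p = 0.0485). In Srrm2-KD they had -1.18 ± 0.25 and -0.73 ± 0.21 (edgeR adjusted p = 0.0646 and 0.127). Of 24 alternative fits the call was lost in 6 for *Myc*, in 10 for *Gbx2*, in 13 for *Socs1* and in 15 for *Sp5*. For *Sp5* and *Socs1* they were lost without any of the 6 Gl2-KD libraries and for *Myc* without Gl2-KD 24 h replicate 1 or 2 or Gl2-KD 72 h replicate 2. Without experiment 2 the edgeR adjusted p in Gl2-KD was 0.521 for *Myc*, 0.607 for *Sp5* and 0.607 for *Socs1*, with log2 fold changes of -1.61, -0.86 and -1.99.

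Between the siRNAs at 72 h the smallest p of these targets were those of *Tfcp2l1*, a transcription factor gene of the naive pluripotent state (-0.44 ± 0.13, edgeR adjusted p = 0.206), *Myc* (0.56 ± 0.24, edgeR adjusted p = 0.368) and *Cebpd* (0.39 ± 0.19, edgeR adjusted p = 0.430). *Tfcp2l1* was lower in 3 of 3 experiments at 24 h too, with -0.33 ± 0.13. The highest targets were *Mcl1*, a survival gene, with 127.8 CPM per kb, *Zfp57* with 118.3 CPM per kb and *Sall4* with 46.0 CPM per kb, and their log2 fold changes at 72 h were 0.15, -0.12 and -0.20.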

How the data were processed

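PolyA+ libraries of 12 cultures (3 experiments, 2 siRNAs, 24 h and 72 h) were made with a stranded mRNA kit and sequenced in 100-base pairs. The authors deposited estimated counts per gene, from pseudoalignment with kallisto 0.46.1 to the GENCODE M24 mouse transcriptome, with mm10 named in the submitters' processing notes. No source used here says how transcripts were summed to genes. Between 33.8% and 43.0% of the values in a library were not whole, and all were rounded before the fit. Of 42450 identifiers, 42156 matched GENCODE M21 (GRCm38), which gave symbols, positions and lengths. Promoter sequence came from RefSeq (GRCm38.p6).

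Genes with about 10 counts or more in a group's number of libraries and 15 in total were kept (filterByExpr), which left 19410. edgeR 4.0.16 (R 4.3.3) fitted 1 quasi-likelihood model over the 4 groups with the experiment as a block and TMM scaling, and p-values were adjusted by Benjamini-Hochberg over all genes tested, with a threshold of 0.05. The study used the RNA processing day as its covariate, which the labels do not give, so the experiment number stands in its place. The numbers mark independent experiments that held all 4 groups. Deviations from the group means had a Pearson r between 0.281 and 0.747 in 18 pairs of libraries of the same experiment and between -0.628 and 0.231 in 36 other pairs. Intervals are at 95%, and log2 CPM used a prior count of 2. Errors after ± are SE for log2 fold changes and SD for levels. Totals per library ran from 73933196 to 153343831 estimated counts.

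The members and gene lists were chosen with earlier results of these data known, so they are described by counts and medians and no list was tested. All members are named, and of each other list the genes called, the 3 with the smallest p at 72 h and the 3 highest per kilobase. A gene that this rule names is not reported here. For *Stat3* and *Socs3* the 3 most correlated genes are named. Alternatives were DESeq2 1.42.0, limma-voom (limma 3.58.1), other scalings, filter, dispersion and block settings, and omission of each library or experiment in turn. Offsets for gene length and the settings for *Srrm2*, *Socs1*, *Myc* and *Sp5* were added after the data were seen.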

Additional observations from a re-analysis of the deposited data

How the results depend on the processing

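Genes called between the siRNAs at 24 h, 0 in the edgeR fit, were 25 in DESeq2, 2 in limma-voom, 1 with no filter and 1 with glmQLFit's other dispersion, and at 72 h 542, 4, 42 and 5 in the same order, 724 with experiment and time blocked jointly and 323 with the 72 h libraries alone. Between times in Gl2-KD, 282 became 1338 in DESeq2, 482 in limma-voom, 624 with the other dispersion and 158 with the 6 libraries alone, and in Srrm2-KD 107 became 1061, 259, 279 and 0, and 212 with no filter. The difference of the knockdown effect had 2 calls in DESeq2 and 1 with no filter. The block was part of the design, and with no replicate block 0 genes and 0 members were called between times in Gl2-KD and 0 genes in Srrm2-KD.

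Members called at 72 h became 1 (*Pim1*) with experiment and time blocked jointly (3.73% of the genes tested) and with the 72 h libraries alone (1.78%). In Srrm2-KD between times they became 1 (*Gbx2*) in DESeq2 (6.62%) and with no filter (0.727%). The members' median difference of the knockdown effect, -0.071, was -0.052 in DESeq2 and with RLE factors. Values near 0 changed sign: *Il6st* at 24 h was 0.000113 with no filter and 0.013 with length offsets, *Bcl3* at 72 h 0.0081 in DESeq2, 0.0079 with RLE factors and 0.0026 with library totals, *Stat3* at 72 h 0.021 with length offsets, and *Lifr* between times in Gl2-KD -0.000797 in DESeq2, -0.000773 with RLE factors, -0.018 with library totals and -0.012 with no replicate block. The causes were not tested.

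Leaving out 1 library or experiment gave these ranges. Genes called were 0 to 10 at 24 h, 0 to 55 at 72 h, 0 to 387 between times in Gl2-KD, 0 to 135 in Srrm2-KD and 0 to 2 for the difference of the knockdown effect. The count of 282 in Gl2-KD moved most without experiment 2 (0 genes), Gl2-KD 72 h replicate 2 (0), Gl2-KD 24 h replicate 1 (2) and replicate 2 (3), and that of 107 in Srrm2-KD was 0 without any of 5 libraries and without experiment 2. Members called were 0 to 1 in each of the comparisons between times. The members' medians were -0.067 to 0.10 at 24 h, -0.17 to 0.13 at 72 h, -0.15 to 0.067 between times in Gl2-KD and -0.16 to 0.036 for the difference. Log2 fold changes that changed sign at 24 h were *Il6st* (-0.061 to 0.014), *Stat3* (-0.064 to 0.22), *Junb* (-0.17 to 0.081), *Gbx2* (-0.22 to 0.13), *Bcl3* (-0.025 to 0.26) and *Lifr* (-0.0028 to 0.27). At 72 h they were *Gbx2* (-0.20 to 0.21), *Stat3* (-0.16 to 0.12), *Bcl3* (-0.23 to 0.17), *Socs3* (-0.020 to 0.17) and *Il6st* (-0.0018 to 0.15). Between times in Gl2-KD they were *Junb* (-0.053 to 0.22), *Stat3* (-0.19 to 0.12), *Bcl3* (-0.24 to 0.046), *Lifr* (-0.060 to 0.083), *Jak1* (-0.15 to 0.047) and *Pim1* (-0.15 to 0.41), and in Srrm2-KD *Pim1* (-0.42 to 0.21), *Stat3* (-0.26 to 0.042), *Junb* (-0.22 to 0.019) and *Lifr* (-0.0024 to 0.24). For the difference of the knockdown effect they were *Gbx2* (-0.12 to 0.37), *Socs3* (-0.26 to 0.046), *Pim3* (-0.17 to 0.095), *Jak1* (-0.16 to 0.049), *Lifr* (-0.085 to 0.22), *Pim1* (-0.57 to 0.14), *Stat3* (-0.26 to 0.066) and *Bcl3* (-0.31 to 0.084).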
